A study of Homo sapiens with 5 samples.

Results

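Chemokine and interleukin genes were examined for binding of PHF8, a Jumonji C histone demethylase, at their transcription start sites (TSSs) in SKMEL-147 human melanoma cells. Members were picked by a rule on gene symbols, with earlier results of these data known. They were the autosomal protein-coding genes whose symbol is CCL, CXCL or IL followed by a number, with at most 1 further letter, and they numbered 76 of the 19229 autosomal protein-coding genes annotated on GRCh37. The set held 24 CCL, 14 CXCL and 38 IL genes. Receptors, antagonists and ligands with other names were left out of it and are described as related genes.

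The study prepared 3 chromatin immunoprecipitation (ChIP-seq) replicates, A, B1 and B2, from SKMEL-147 with the anti-PHF8 antibody ab36068, together with 2 input libraries, A and B. The cells are 1 established line, and the design text of the series mentions a PHF8 loss-of-function model made with an sgRNA, while the labels of these libraries name no guide. All replicates form 1 group, so no condition could be compared and no p-value is given. Nothing in the labels says whether the replicates came from separate cultures. No separate inputs are labelled for B1 and B2, so these replicates may share input B and may not be independent. The SDs given below describe the spread among the 3 peak lists only.

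Chemokines are small secreted proteins that guide leukocytes along concentration gradients by acting on G protein-coupled receptors. Interleukins are a looser class of secreted messengers that act mainly on receptors coupled to Janus kinases and STAT factors or to MYD88, and many of their genes are silent until an inflammatory signal activates NF-kappaB or related factors. Melanoma cells are known to secrete several of them, CXCL1 and CXCL8 among others.

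The promoter sequences of the CXCL8 to CXCL2 cluster on chromosome 4 are shown first, since 4 of its 6 genes were bound and the other members, CXCL6 and CXCL8, had no peak. Each line gives the GRCh37 sequence on the strand of the gene, 5′ to 3′, upstream of the canonical TSS. Capitals mark matches to GGNNTTTCC, letters shared by many NF-kappaB sites, found on either strand. The stretches are chr4:74735010-74735109 (plus strand) for CXCL1, chr4:74964913-74965012 (minus) for CXCL2, chr4:74904407-74904506 (minus) for CXCL3, chr4:74864395-74864494 (minus) for CXCL5, chr4:74702295-74702356 (plus) for CXCL6 and chr4:74606186-74606235 (plus) for CXCL8. The CXCL6 stretch ends at position -39 and the CXCL8 stretch at -51 from the TSS, and the others end at -1.
CXCL1: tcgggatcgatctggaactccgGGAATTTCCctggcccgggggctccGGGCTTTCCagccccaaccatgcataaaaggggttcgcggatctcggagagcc
CXCL2: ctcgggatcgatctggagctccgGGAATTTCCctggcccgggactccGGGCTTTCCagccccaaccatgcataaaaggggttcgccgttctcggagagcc
CXCL3: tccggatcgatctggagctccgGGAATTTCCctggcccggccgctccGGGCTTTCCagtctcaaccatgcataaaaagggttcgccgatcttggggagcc
CXCL5: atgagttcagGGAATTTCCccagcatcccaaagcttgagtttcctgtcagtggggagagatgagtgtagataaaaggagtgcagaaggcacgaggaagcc
CXCL6: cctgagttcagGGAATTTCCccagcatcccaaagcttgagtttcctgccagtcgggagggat
CXCL8: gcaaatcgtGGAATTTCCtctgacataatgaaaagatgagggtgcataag

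CXCL1, CXCL2 and CXCL3 each carried 2 matches, which began 77 or 78 bases and 53 bases upstream of the TSS. CXCL5, CXCL6 and CXCL8 each carried 1, beginning at -90, -89 and -91. The bound CXCL5 and the unbound CXCL6 were the most alike of the 15 pairs, with 83.1% identity over aligned promoters of 300 bases, followed by CXCL1 and CXCL3 at 82.5%. Identity was 73.8% for CXCL2 with CXCL3 and 71.9% for CXCL1 with CXCL2. CXCL8 shared at most 48.0% with any of the others. A match is a description of letters and not a site of binding.

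Promoters of differing CpG content are shown for comparison, since the share of bound members differed with CpG content. Capitals mark CG. The stretches are chr19:55881832-55881931 (minus strand) for IL11, the member with the highest rank of PHF8 signal, chr10:44880546-44880645 (minus) for CXCL12, a CpG-rich member without a peak, and chr4:123377881-123377980 (minus) for IL2, a CpG-poor member without a peak.
IL11: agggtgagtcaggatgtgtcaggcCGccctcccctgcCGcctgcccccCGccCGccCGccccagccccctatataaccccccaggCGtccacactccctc
CXCL12: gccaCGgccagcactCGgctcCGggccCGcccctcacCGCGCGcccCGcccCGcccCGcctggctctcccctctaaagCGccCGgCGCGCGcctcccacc
IL2: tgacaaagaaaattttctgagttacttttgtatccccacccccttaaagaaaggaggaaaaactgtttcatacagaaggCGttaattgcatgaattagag

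The IL11 stretch held 6 CG dinucleotides, against 15 in CXCL12 and 1 in IL2. The CpG-rich CXCL12 promoter had no peak in any replicate. The stretches were picked by CpG content and PHF8 signal, and the IL11 summits lay downstream of the printed bases. Such examples cannot show how binding goes with CpG content. Over all autosomal protein-coding genes, 80.0% of those with CpG-rich sequence at a TSS and 9.72% of the others were bound.

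In all 3 replicates, PHF8 peaks came within 1 kb of a TSS at 13 of the 76 members (17.1%), against 61.0% of all autosomal protein-coding genes (11730 of 19229). Genes of this kind are called bound here. A further 2 members, IL24 and IL6, had a peak in 2 replicates, 3 members (CCL2, IL1A and IL12B) had one in 1 replicate, and 58 had none. With a peak in any replicate sufficing, the count was 18 (23.7%), against 63.7% of all genes. Single replicates gave 17 members in A, 15 in B1 and 14 in B2, where they gave 63.2%, 62.0% and 61.7% of all genes. The lower share of members was therefore present in each replicate, and no test was made of it.

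Bound members differed by family. They comprised 1 of 24 CCL genes (4.17%), 4 of 14 CXCL genes (28.6%) and 8 of 38 IL genes (21.1%). The bound genes were CCL28 among the CCL genes, CXCL1, CXCL2, CXCL3 and CXCL5 among the CXCL genes, and IL5, IL7, IL11, IL12A, IL15, IL17D, IL23A and IL32 among the interleukins.

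The peak lists held 21506 peaks in A, 20882 in B1 and 20120 in B2. Fold enrichment is the ratio of ChIP signal to local background at the summit of a peak, with the same small constant added to both. Its scale differs between lists, with a median of 18.86 in A and 11.8 in both B1 and B2. Each bound gene was therefore also given a percentile, the rank of its strongest TSS peak among all bound autosomal protein-coding genes of the same replicate. At the summit of the median peak there were 54 fragments for A, 39 for B1 and 40 for B2. The minimum over called peaks was 8, 8 and 10. Total reads are unknown here, and weaker binding than these minima was not detectable. Sites with more fragments could also go uncalled, since a call depends on the local background too. Of 6 melanocyte genes, the regulators SOX10 and MITF and the pigment gene PMEL were bound, and TYR, MLANA and DCT had no peak. The summit at PMEL in A was 90 bp from a TSS of CDK2 and 188 bp from one of PMEL. A promoter peak is not a measure of expression, so these genes do not check the labelled cell type.

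**Figure D1:**
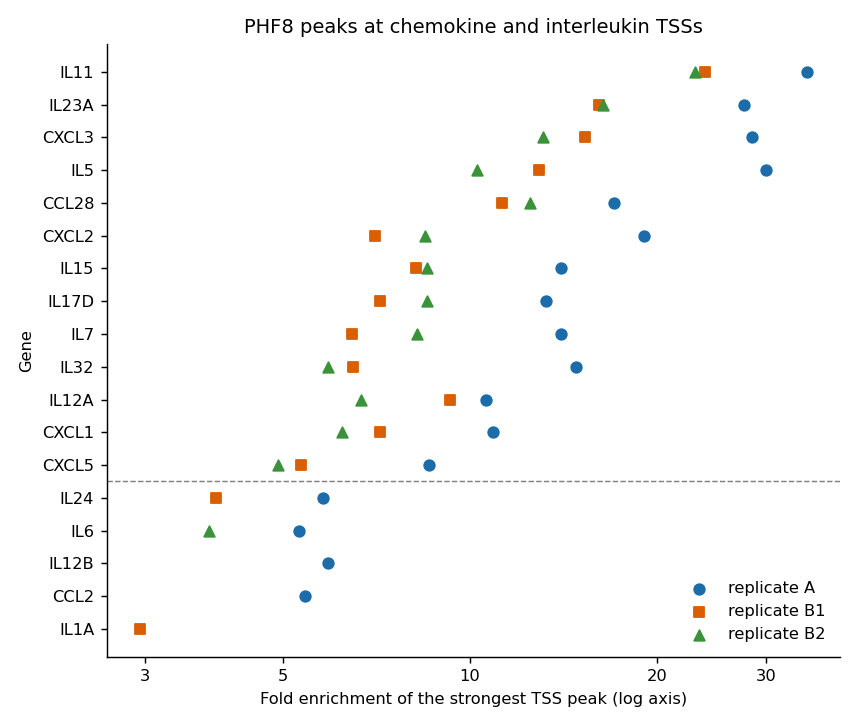
Fold enrichment (log axis) of the strongest PHF8 peak at a TSS of each member with a peak, for replicates A (circles), B1 (squares) and B2 (triangles). Genes above the dashed line had a peak in all 3 replicates, from IL11 at 23.0 to 34.9 down to CXCL5 at 4.91 to 8.6, and those below it in 1 or 2.

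Most bound members carried weak peaks, as the plot of fold enrichment by replicate shows. Their median percentile was 9.1, with a range from 1.9 for CXCL5 to 62.8 for IL11, against a median of 50.9 over all bound genes. IL11 was the only one of the 13 above 50. Fold enrichment was highest in A at each bound member, as it was for the lists as a whole.

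The bound neutrophil-attracting CXCL genes, which encode ligands of the receptor CXCR2, were all members of 1 genomic cluster. CXCL3 (ENSG00000163734, peak chr4:74904201-74904917 in A) was enriched 28.44-fold, 15.35-fold and 13.14-fold in A, B1 and B2, a mean of 18.98 ± 8.27 (SD, n = 3), with 72, 44 and 39 fragments at the summit. Its mean percentile was 31.9 ± 5.1, the highest of the chemokine genes. The summit of A lay 215 bp upstream of the gene start, whereas those of B1 and B2 lay 1 and 16 bp upstream of a second TSS within the gene, so the summits spread over 332 bp.

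CXCL2 (ENSG00000081041, peak chr4:74964751-74965413 in A) reached 19.09, 7.04 and 8.46 in A, B1 and B2 (mean 11.53 ± 6.59, SD, n = 3). Its value in A was more than those of B1 and B2 together. The summits of A and B2 were 22 and 23 bp upstream of the CXCL2 TSS, whereas that of B1 was 380 bp upstream and only 173 bp from the TSS of the lncRNA gene ENSG00000289241. A and B2 each held a second, weaker peak at the gene, of 5.45 and 4.91.

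CXCL1 (ENSG00000163739, peak chr4:74734731-74735484 in A), first described as a melanoma growth-stimulating activity, had weaker peaks of 10.91, 7.16 and 6.24 in A, B1 and B2 (mean 8.1 ± 2.47, SD, n = 3). They rested on 27, 20 and 18 fragments, and B1 held a further peak of 4.09 there. All summits fell inside the gene, 86, 115 and 216 bp downstream of the TSS, in coding sequence in A and B1 and in an intron in B2.

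CXCL5 (ENSG00000163735, peak chr4:74864005-74864477 in A) had the weakest peaks of the bound members, at 8.6, 5.35 and 4.91 in A, B1 and B2 (mean 6.29 ± 2.02, SD, n = 3). The summits held 22, 18 and 17 fragments and lay 86, 149 and 136 bp downstream of the TSS. CXCL1, CXCL2 and CXCL3, and likewise CXCL5 and CXCL6, are near-identical copies in parts of their sequence, so reads could have been assigned to one copy or another by the aligner. The split of peaks among them is uncertain for this reason, and its part in the result was not tested.

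**Figure D2:**
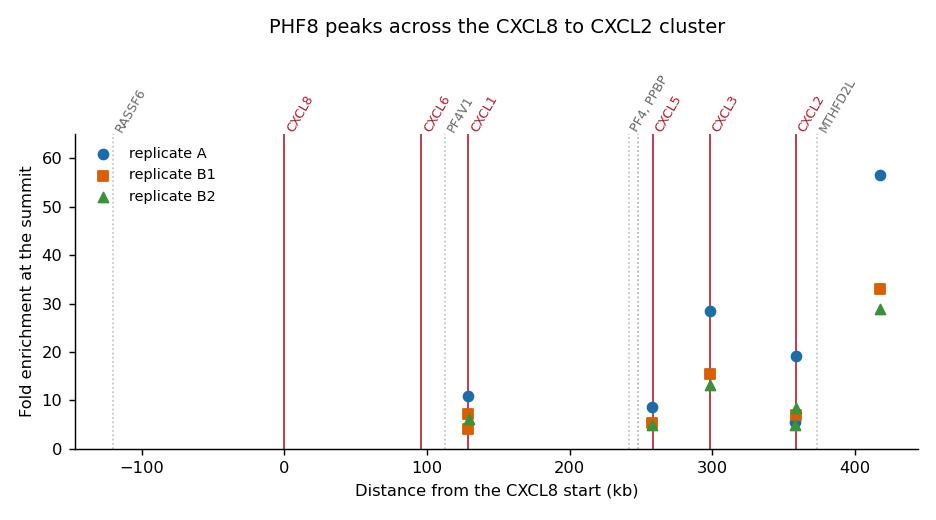
Fold enrichment of PHF8 peaks at their summits (vertical axis) by distance from the CXCL8 start in kb (horizontal axis), in replicates A (circles), B1 (squares) and B2 (triangles). Solid lines mark starts of CXCL members and dotted lines starts of other protein-coding genes, and peaks stand at CXCL1, CXCL5, CXCL3 and CXCL2 with none at CXCL8 or CXCL6.

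Peaks in the cluster were confined to these 4 genes in the lists of all 3 replicates. The cluster spans 359 kb and held 4 regions with a peak in all replicates, 1 at each bound gene. The platelet chemokine genes PF4, PF4V1 and PPBP, which lie between the members, had no TSS peak. CXCL8, whose product is the interleukin-8 that attracts neutrophils, was 128 kb from the nearest shared region, which was that of CXCL1, and CXCL6 was 31.8 kb from the same region. The strongest peaks on the plot of the cluster lay beyond CXCL2, 417.72 to 417.74 kb from the CXCL8 start, and reached 56.49 in A, 33.08 in B1 and 28.91 in B2. Every CXCL member of the cluster was thus below the strongest peaks near it in each replicate.

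CCL28, which encodes a mucosal chemokine that acts on CCR10 and CCR3, was the only bound CCL gene. Its peaks (ENSG00000151882, chr5:43396854-43397544 in A) measured 17.09 in A, 11.25 in B1 and 12.49 in B2, for a mean of 13.61 ± 3.08 (SD, n = 3), at 43, 32 and 37 fragments. They did not lie at the start of the gene record. The summits were 199, 180 and 106 bp downstream of an internal TSS of a protein-coding transcript, itself 15127 bp downstream of the gene start, within a UTR. With the gene start as the only TSS, CCL28 was not bound, and none of the 24 CCL genes was bound.

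IL11, a member of the interleukin-6 family that signals through gp130, carried the strongest signal of all members by rank. Its peaks stood at 34.9-fold, 23.87-fold and 23.0-fold in A, B1 and B2, a mean of 27.26 ± 6.63 (SD, n = 3), at 104, 69 and 69 fragments. The mean percentile of 62.8 ± 8.8 rested on values of 52.6, 67.3 and 68.4 in A, B1 and B2, the highest of the bound members in each replicate. The peak (ENSG00000095752, chr19:55881153-55882304 in A) was 1152 bp wide in A, 1186 bp in B1 and 1354 bp in B2. Its summits lay 148, 113 and 134 bp downstream of the TSS in a UTR, and the nearest TSS of another gene, TMEM190, was at least 6476 bp away.

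The members with peaks in 2 replicates were much weaker. IL6, of the same family as IL11 and a central inflammatory cytokine, had peaks of 5.32 in A and 3.81 in B2, on 15 and 12 fragments, and none in B1. Their summits lay 10 bp (A) and 1 bp (B2) from internal TSSs of protein-coding IL6 transcripts, and 476 and 388 bp from a TSS of STEAP1B. IL24, a cytokine of the IL-10 family first known as melanoma differentiation-associated gene 7, had peaks of 5.8 in A and 3.91 in B1 and none in B2. Its summits lay 624 and 745 bp downstream of a TSS, in an intron.

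The subunits of interleukin-12 and interleukin-23 form a small group of their own. IL12A (ENSG00000168811, chr3:159706532-159706867 in A) encodes the p35 chain of interleukin-12 and had peaks of 10.62, 9.28 and 6.69 in A, B1 and B2 (mean 8.86 ± 2.0, SD, n = 3), with summits within 34 bp of a TSS in every replicate. IL23A (ENSG00000110944, chr12:56727154-56727812 in A) encodes the p19 chain of interleukin-23 and had stronger peaks of 27.59, 16.15 and 16.39 in A, B1 and B2 (mean 20.04 ± 6.54, SD, n = 3). At IL23A, however, the summits lay 343, 332 and 348 bp upstream of its nearest TSS, that of a transcript without a defined coding sequence. They were only 88, 95 and 83 bp from a TSS of the divergent gene PAN2, a deadenylase subunit. With TSSs of protein-coding transcripts alone, IL23A was not bound. IL12B, the p40 chain common to both cytokines, had a peak in A alone, of 5.92 on 16 fragments, whose summit was 810 bp upstream of IL12B and 155 bp from the TSS of the lncRNA gene ENSG00000249738.

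IL5, which supports eosinophils, had a similar position to IL23A. Its peaks (ENSG00000113525, chr5:131892265-131893197 in A) reached 30.0, 12.94 and 10.29 in A, B1 and B2 (mean 17.74 ± 10.7, SD, n = 3). The summits lay 255, 266 and 261 bp upstream of the TSS at the start of the IL5 gene record, which is not its canonical TSS. They were 49, 38 and 43 bp from a TSS of RAD50, a subunit of a DNA break repair complex. The local background was 1.57 fragments in A but 4.25 and 4.44 in B1 and B2. With the constant added to fragments and background, 76, 67 and 55 fragments thus gave these unequal ratios. When a peak was counted only for the protein-coding gene with the nearest TSS, an alternative chosen after seeing the data, IL5 and IL23A dropped out, leaving 11 members against 54.0% of all genes.

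IL15 and IL7 encode lymphocyte survival and growth factors that act through the common gamma chain, and both were bound at a low level. IL15 (ENSG00000164136, chr4:142557395-142558402 in A) had values of 14.03, 8.18 and 8.54 in A, B1 and B2 (mean 10.25 ± 3.28, SD, n = 3), with summits at most 61 bp from a TSS. IL7 (ENSG00000104432, on chromosome 8) had 14.03, 6.47 and 8.21 in A, B1 and B2 (mean 9.57 ± 3.96, SD, n = 3), with summits 193 to 367 bp downstream of a TSS, in an intron. Their mean percentiles of 9.1 ± 0.9 and 7.3 ± 2.9 differed by less than the spread of IL7 between replicates. IL2, IL4, IL9 and IL21, whose products use the same receptor chain, had no peak in any replicate.

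The last pair of bound interleukins was IL17D and IL32. IL17D (ENSG00000172458, chr13:21277990-21278443 in A), of the interleukin-17 family, had peaks of 13.25, 7.16 and 8.54 in A, B1 and B2 (mean 9.65 ± 3.19, SD, n = 3). They lay within 97 bp of a TSS that is 1952 bp downstream of the gene start and belongs to a transcript annotated for nonsense-mediated decay. IL17D was also bound when only TSSs of protein-coding transcripts were counted. IL17A, IL17B, IL17C and IL17F had no peak. IL32 (ENSG00000008517, chr16:3115353-3115923 in A), a proinflammatory cytokine gene, had peaks of 14.8, 6.48 and 5.91 in A, B1 and B2 (mean 9.06 ± 4.98, SD, n = 3). Its summits were the most sharply placed of the bound members, at 70, 67 and 71 bp downstream of a TSS in a UTR.

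Peaks called in 1 replicate rested on few fragments. CCL2, a chemokine for monocytes, had a peak of 5.44 in A on 19 fragments, 111 bp downstream of a TSS in coding sequence. IL1A, an alarm cytokine of the skin, had one of 2.95 in B1 on 12 fragments, with a −log10 q-value of 1.8. Neither was called in the other replicates, where a weaker signal could not be detected.

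Across the bound members, summits lay within 1 kb of a TSS in all cases, and within 250 bp at 10 of 13, 9 and 11 in A, B1 and B2. A TSS of the member itself was the nearest start site of any gene at 11 in A, 10 in B1 and 11 in B2. The exceptions were IL5 and IL23A in each replicate, and CXCL2 in B1.

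The CpG content of the start sites, which played no part in choosing the members, was compared next. A gene was called CpG-rich when the 250 bp on either side of any of its TSSs reached 0.5 in GC share and 0.6 in the ratio of observed to expected CpG. Only 15 of the 76 members (19.7%) were CpG-rich, against 73.0% of all autosomal protein-coding genes. Of these 15, 11 were bound (73.3%), beside 80.0% of all CpG-rich genes. Of the 61 other members, 2 were bound (3.28%), beside 9.72% of all genes below the limits. The part of CpG content in the low share of bound members was not tested.

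**Figure D3:**
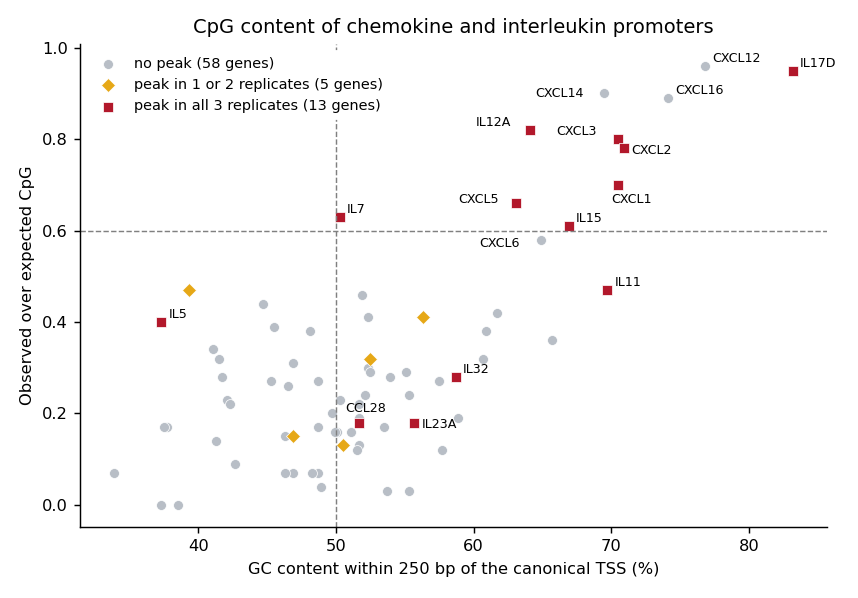
GC content (%) and observed over expected CpG within 250 bp of the canonical TSS of each of the 76 members, with squares for genes with a peak in all 3 replicates, diamonds for 1 or 2 and circles for none. Dashed lines mark the CpG-rich limits, and most bound members stand in the upper right, while IL5, IL23A, CCL28, IL11 and IL32 lie below the CpG limit at this TSS.

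By family, 1 of 24 CCL, 7 of 14 CXCL and 7 of 38 IL genes were CpG-rich, and 1, 4 and 6 of these were bound. At the canonical TSS the median CpG ratio was 0.63 for bound members and 0.23 for the others, beside 0.78 for all genes. The 2 bound members without a CpG-rich start were IL11 and IL32, with ratios of 0.47 and 0.28. The former, whose sequence is printed above, had a GC content of 69.7%, so its start was rich in G and C but not in CpG. IL5, IL23A and CCL28 were CpG-rich at a TSS other than the canonical one, with ratios of 0.40, 0.18 and 0.18 at the canonical TSS.

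CpG-rich members without a peak were CXCL12, CXCL14, CXCL16 and IL13. CXCL12 encodes the ligand of CXCR4 and CXCL14 an epithelial chemokine, and their ratios of 0.96 and 0.90 at the canonical TSS were above that of every bound member for CXCL12, and above all but IL17D (0.95) for CXCL14. The nearest shared regions were 573 kb and 90.0 kb away. CXCL16, a membrane-bound chemokine, was 4.48 kb from a region at the start of MED11, where the peaks measured 48.31 in A, 16.8 in B1 and 18.67 in B2. CXCL6 fell just under the limit at 0.58.

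Short sequence motifs were counted from 250 bases upstream to 50 downstream of the canonical TSS on both strands, for 18978 genes. The TATA box letters TATAAA occurred at 27 of 76 members (35.5%), against 9.65% of all genes. Among bound members IL23A alone had them (7.69% of 13), against 26 of the 63 others (41.3%). All bound genes had them in 4.6% of cases and all other genes in 17.8%. The letters GGNNTTTCC occurred at 6.45% of all genes, 6.71% of all bound genes and 6.05% of all other genes. They were found at 11 of the 63 other members (17.5%). Of the 13 bound members, 5 had them (38.5%), namely CXCL1, CXCL2, CXCL3, CXCL5 and IL17D. The CXCL genes among them share ancestry, as their printed promoters show, and do not count as independent cases. The letters GGGCGG are part of many Sp1 sites and overlap in composition with CpG content. They occurred at 9 of 13 bound members (69.2%), beside 76.0% of all bound genes. They occurred at 12 of 63 other members (19.0%), beside 39.0% of all other genes and 61.8% of all genes. These counts describe letters in a window and were not tested.

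The 63 members that were not bound mostly lay far from any region shared by the replicates. From their nearest TSS to the nearest region with a peak in all 3 replicates, the median distance was 78833 bp, against 60628 bp for the 7499 unbound genes overall. Only 2 of the 63 (3.17%) had such a region within 10 kb, against 12.5% of unbound genes, and 26 (41.3%) were over 100 kb away, against 36.2%. The pair within 10 kb was CCL27 and CXCL16. CCL27, a skin chemokine made by keratinocytes, stood just outside the window used here, with its nearest region at 1019 bp and a fold enrichment there of 24.54, 8.87 and 12.49 in A, B1 and B2. That region lay 94 bp from a TSS of another gene, ENSG00000187186. No bound member stood close to the limit from inside, since all 13 were also bound with a window of 500 bp, and the most distant summit among them was that of CXCL2 in B1, at 380 bp.

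**Figure D4:**
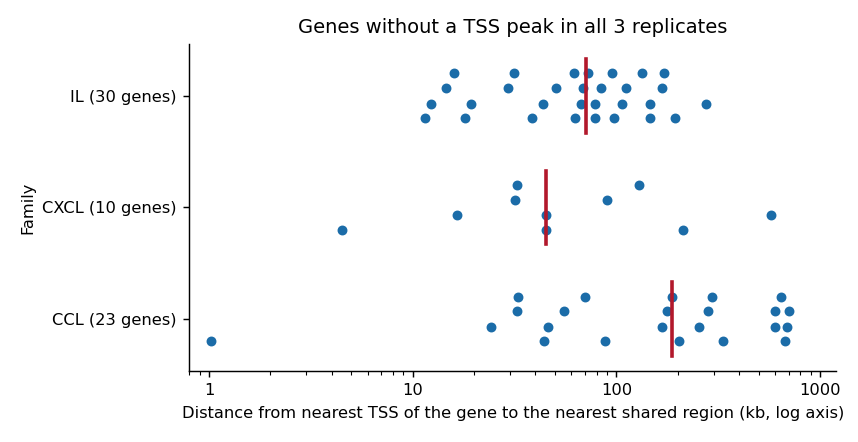
Distance in kb (log axis) from the nearest TSS of each unbound member to the nearest region with a peak in all 3 replicates, by family, with a vertical bar at each median. The CCL genes lie farthest, with a median of 188322 bp, against 70511 bp for the IL and 45163 bp for the CXCL genes. Many CCL genes sit in clusters measured to the same region and are not independent.

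Unbound CCL genes were the most remote, as the plot of distances by family shows. Their median distance was 188322 bp, and 14 of 23 (60.9%) were over 100 kb from a shared region, against 3 of 10 CXCL and 9 of 30 IL genes (30.0% each). All of these 14 except CCL20 lie in the monocyte chemokine and CCL3 clusters on chromosome 17, described below. Genes within each of these clusters were measured to the same shared region, so they are not independent cases. CCL2 was 706 kb and CCL7 691 kb away. CCL5, a T cell chemokine, was nearer at 70.3 kb, and the interferon-induced CXCL10 was 32.5 kb away. Among well-known interleukins, IL1A was 19.3 kb, IL1B 68.4 kb, IL10 84.1 kb, IL24 11.5 kb and IL6 95.3 kb from such a region.

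Many members sit in genomic clusters, defined here as at least 3 members with gaps of at most 500 kb between gene starts. There were 8 clusters with 39 members, of which 5 were bound (12.8%), against 8 of the 37 outside (21.6%). Over all autosomal protein-coding genes the bound share was 61.0%. Nearby genes in a cluster share their surroundings and are not independent. The monocyte chemokine cluster on chromosome 17 (CCL1, CCL2, CCL7, CCL8, CCL11 and CCL13, spanning 108 kb) and the CCL3 cluster on the same chromosome (CCL3, CCL4, CCL5, CCL14, CCL15, CCL16, CCL18 and CCL23, spanning 235 kb) held 0 shared regions. The same was true of the IL1A cluster on chromosome 2 (IL1A, IL1B, IL36A, IL36B and IL37, 279 kb), of the IL10 cluster on chromosome 1 (IL10, IL19, IL20 and IL24, 137 kb), and of CXCL9, CXCL10 and CXCL11 on chromosome 4 (40.1 kb).

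The type 2 cytokine cluster on chromosome 5 differed from these. It held IL3, IL4, IL5 and IL13 across 622 kb and contained 11 shared regions. Of the 8 other protein-coding genes in it, 7 were bound, RAD50 and the interferon regulatory factor gene IRF1 among them. Over all autosomal protein-coding genes the bound share was 61.0%. IL5 was the only bound member, and its summits stood at RAD50. IL3 was 167 kb, IL13 78.8 kb and IL4 62.6 kb from the nearest shared region. On chromosome 9, CCL19, CCL21 and CCL27 were without a peak in 48.3 kb with 2 shared regions, and all 3 other protein-coding genes there were bound, IL11RA among them.

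Genes that act with these ligands were examined with lists of receptors, transducers and other cytokines, beside 61.0% of all autosomal protein-coding genes bound. Only genes annotated as autosomal and protein-coding were counted. These were 22 of 23 listed chemokine receptors, 36 of 41 interleukin receptor subunits and 28 of 29 signal transducers. Chemokine receptor genes were bound at 4 of 22 (18.2%), beside 4.17% of CCL and 28.6% of CXCL genes. These were ACKR2, CCRL2, CCR7 and CCR10, whose product is a receptor for CCL28. The peak at ACKR2, a scavenging receptor, reached 49.56, 24.07 and 22.08 in A, B1 and B2, but its summit in A was 92 bp from a TSS of HIGD1A and 411 bp from one of ACKR2. CCR10 had 11.14, 8.53 and 5.22, with the summit in A 12 bp from a TSS of CNTNAP1. CXCR2, the receptor for the bound neutrophil chemokines, CXCR1, which acts mainly with CXCL8 and CXCL6, and CXCR4 had no peak.

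Interleukin receptor subunits were bound at 18 of 36 (50.0%), against 61.0% of all autosomal protein-coding genes. The highest ranks belonged to IL5RA, LIFR, OSMR, IL6ST and IL1RAP. The peak at IL5RA, of 54.51, 34.06 and 34.65 in A, B1 and B2, had its summit in A 30 bp from a TSS of TRNT1 and 478 bp from one of IL5RA. IL6ST encodes gp130, the signalling chain for IL11 and IL6, and had 38.99, 19.14 and 18.55 in A, B1 and B2. Its mean percentile was 53.8. IL11RA, the specific receptor chain of IL11, was bound at 24.93, 9.57 and 9.61, and IL15RA, that of IL15, at 9.22, 8.18 and 9.53. Both receptor chains of IL11 and IL11 itself were bound, whereas IL7R had no peak and IL7 did. IL23R and IL12RB2 had no peak and IL12RB1 had one in 2 replicates, although IL23A and IL12A were bound. Pairing of ligand and receptor was not tested.

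Cytokine signal transducers were bound at 26 of 28 (92.9%), with a median percentile of 57.8. TYK2, JAK1, TRAF2, JAK2 and STAT5B led by rank, and TYK2 reached 67.33 in A, 33.76 in B1 and 39.76 in B2. JAK3 and STAT4, which are typical of lymphocytes, had no peak. Cytokines and antagonists with other names were bound at 2 of 22 (9.09%), CSF1 at 14.96, 12.62 and 10.1 and CLCF1 at 15.71, 11.22 and 10.84, while TSLP had a peak of 5.12 in A alone. TNF, IFNG, LIF and CSF2 had none.

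**Figure D5:**
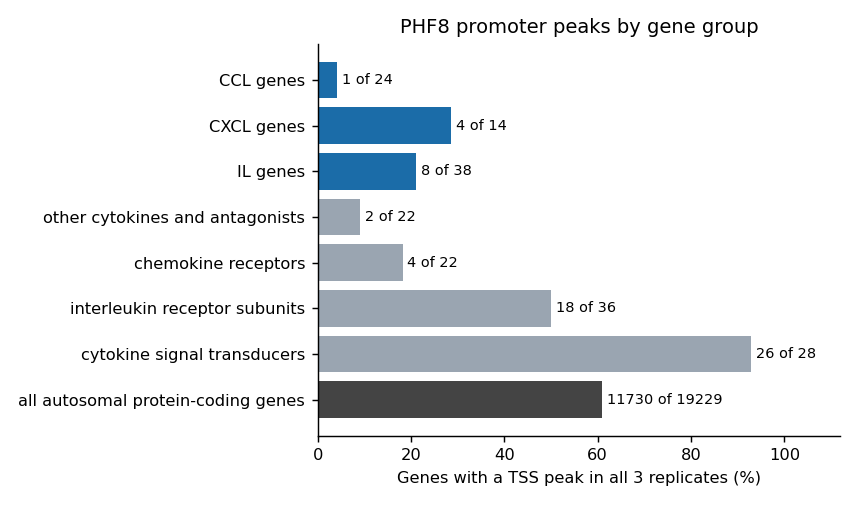
Share of genes (%) with a PHF8 peak at a TSS in all 3 replicates, for the 3 member families, for 4 lists of related genes and for all autosomal protein-coding genes, with the count beside each bar. The ligand families and chemokine receptors lie below the 61.0% of all genes, interleukin receptor subunits stand at 50.0% and signal transducers at 92.9%.

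The lists also differed in CpG content. CpG-rich starts were found at 26 of 28 transducers, 19 of 36 interleukin receptor subunits, 4 of 22 chemokine receptors and 4 of 22 other cytokines. Over all autosomal protein-coding genes the share was 73.0%. Of the CpG-rich genes in the lists, 25, 15, 2 and 2 were bound, beside 80.0% of all CpG-rich genes. The counts describe the lists and were not tested, since the lists were written with earlier results of these data known.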

How the data were processed

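PHF8 ChIP-seq of SKMEL-147 (3 ChIP and 2 input libraries) was analysed from the deposited peak lists of the ChIP replicates. Per the labels and methods, the authors aligned reads to hg19 with Bowtie2 and called narrow peaks with MACS for each replicate against input, without pooling. The inputs were not analysed on their own. The authors' cutoffs were an enrichment above 1.5-fold and a q-value of 0.05. The methods print the latter as above 0.05, which was read here as below, and all listed peaks then passed both. Versions and the treatment of duplicates are not given in the sources used here.

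The authors deposited fold enrichment as the ratio of ChIP signal to local background at the summit. The deposited values were reproduced with the same small constant added to both. The p-value and q-value were deposited as −log10 values. The deposited score, a whole number made from the q-value, was not used. Fragments at a summit were recovered as the whole number that reproduces fold enrichment and p-value under a Poisson law, which held for 100% of peaks within 0.001.

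Every transcript of the GRCh37 lift of GENCODE release 44 gave a TSS, and GRCh37 is the build hg19. A gene was bound when a peak overlapped 1 kb around any TSS in all 3 replicates. Neighbouring genes that share a peak each count. Regions were merged over replicates at an overlap of 1 bp. Members and lists were chosen with earlier results of these data known. Named were every member with a peak, genes with a TSS nearer to the summit, CpG-rich members without a peak, clusters, a set of well-known members, and the 5 top-ranked genes of each list. Other genes named were picked after their values were seen. Alternatives were the summit inside the window, windows of 500 bp or 2 kb, other TSS sets, stricter cutoffs, fewer replicates and CpG limits. Counting peaks for the nearest gene was added after seeing the data. The peak-to-gene step was tested on simulated data. Python 3.11.15 with pandas 2.3.3 and Biopython 1.88 was used.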

Additional observations from a re-analysis of the deposited data

How the results depend on the processing

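The number of bound members was 13 to 14 across windows of 500 bp and 2 kb (which added CCL27), the summit inside the window, a fold enrichment above 4, a q-value below 0.001 and leaving out each replicate (13 without A, 14 without B1 with IL6, 14 without B2 with IL24). It was 11 with the gene start as the only TSS (without CCL28 and IL17D), 12 with TSSs of protein-coding transcripts (without IL23A), 15 with a peak in 2 replicates, 18 with a peak in 1, and 11 with peaks counted for the nearest gene. A fold enrichment above 10 left 5 members (6.58%) at a median percentile of 18.7, beside 50.8% of all genes. Those lost were CXCL1, CXCL2, CXCL5, IL7, IL12A, IL15, IL17D and IL32. Under the other alternatives the median percentile was 8.3 to 9.8. CpG-rich members numbered 13 at stricter limits and 11 with only the gene start. No paired analysis was possible because the replicates form 1 group and no test was made. Called peaks held at least 8 to 10 fragments, but sites with more could also go uncalled where the local background was high. The number of fragments covers counting error only.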
